A study of Mus musculus with 7 samples.

Results

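Phox2a, Ret, Gfra1, Gfra2, Th and Dbh are 6 genes of the autonomic and enteric nervous system, taken by name from the 32285 genes of the count tables and followed through every library and cell class of the series. Phox2a (ENSMUSG00000007946, chr7:101818313-101822726, plus strand, GRCm38) encodes a homeodomain transcription factor. Ret (ENSMUSG00000030110, chr6:118151745-118197718, minus strand) encodes a receptor tyrosine kinase, and Gfra1 (ENSMUSG00000025089, chr19:58235604-58455909, minus strand) and Gfra2 (ENSMUSG00000022103, chr14:70890120-70979838, plus strand) encode the membrane-anchored coreceptors through which it binds GDNF and neurturin. Th (ENSMUSG00000000214, chr7:142892752-142931128, minus strand) and Dbh (ENSMUSG00000000889, chr2:27165233-27183200, plus strand) encode tyrosine hydroxylase and dopamine beta-hydroxylase, enzymes on the route from tyrosine to noradrenaline.

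Neural crest cells leave the dorsal neural tube, and those that reach the aorta and the foregut form sympathetic and enteric neurons. The Phox2 factors, acting with Hand2 and Gata3, are known to switch on Th and Dbh in sympathetic precursors. Ret signaling with Gfra1 carries enteric precursors along the gut, and Sox10 marks migrating crest and glia.

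The data are droplet 3' single-cell RNA counts of 7 libraries of EGFP-positive cells sorted from mouse embryos of a mixed Swiss-Webster background in which Wnt1-Cre had switched on a ROSA-EGFP reporter. The controls (Wnt1-Cre/+;ROSA-EGFPf/+) gave 1 library at E8.5 from the anterior embryo, 1 at E9.5 from the pharyngeal apparatus and heart, and 2 at E10.5 from arches 2 to 6 and heart. Embryos titled Tbx1 null gave 1 library at E9.5 and 2 at E10.5 from the matching tissue, the first arch again being left out at E10.5. The series asks how loss of Tbx1, a transcription factor of the tissues around the crest, alters crest cells. The genotype field of the null libraries reads Tbx1+/- although their titles read null and the study describes them as Tbx1-/-, and they are called null here. Each library pooled at least 2 embryos. Wnt1-Cre also acts in the dorsal neural tube, so neural tube neurons pass the sort.

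Cells were placed in classes by 2 rules, at least 2 unique molecular identifiers (UMIs) of Sox10, and at least 3 UMIs of Tubb3 and Stmn2 together, the rule for neuronal cells. Cells that met the first rule only are called Sox10 cells (117 to 1328 per library), those that met the second rule only Tubb3/Stmn2 cells (547 to 4581), those that met both were kept apart (78 to 690), and the rest are other cells (1206 to 7921). Kept cells numbered 5587 to 9557 per library with a median of 14855.5 to 22882 UMIs, and any pair of libraries shared 0 to 44 cell barcodes. The second rule was not a neuron gate at every stage. Of the cells with at least 3 Tubb3 and Stmn2 UMIs, 2.15% at E8.5 and 18.2% (control) and 24.9% (null) at E9.5 also had at least 3 UMIs of the neuronal genes Elavl3, Elavl4 and Dcx, against 48.9% to 68.6% at E10.5. At 20 or more UMIs of Tubb3 and Stmn2 the share was 97.1% to 98.7% in the E10.5 libraries, and results that change at that limit are given at both. Sox10 cells at E10.5 had Foxd3, a factor of migrating crest, at 106 to 207 CPM, against 0.7 to 1.84 CPM in other cells. At E8.5 Foxd3 was at 11.8 CPM in Sox10 cells and 2.9 CPM in other cells, and the mesenchymal gene Twist1 was at 150 and 69.5 CPM.

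E10.5 null library 2 stood apart, since its mesenchymal cells (at least 6 UMIs of Prrx1, Prrx2 and Twist1 together) carried a mean of 3.53 UMIs of Tubb3 and Stmn2, against 0.155 to 1.51 in the other 6 libraries. In it 54.1% of mesenchymal cells passed the rule of 3 UMIs. Fits without this library are given for some of the results that rest on it. The chemistry also differed, with kit version 2 at E8.5, 3.1 for the controls at E9.5 and E10.5 and for E10.5 null library 2, and 3 for the E9.5 null library and E10.5 null library 1. At E10.5 only the null library 2 matches the controls in kit, so fits without null library 1 are the values within 1 kit. Tbx1 itself had UMIs in null and control libraries alike, and 3' counts do not check the genotype.

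The 6 genes fell into separate patterns, shown in the plot of levels by library and class. Among Sox10, Tubb3/Stmn2 and other cells, Phox2a (from E9.5 on) and, at E10.5, Th and Dbh were highest in Tubb3/Stmn2 cells, and in those cells the 3 genes reached their highest levels at E10.5. Gfra1 and Gfra2 were highest in Sox10 cells at E10.5 among the same 3 classes. Ret was present from E8.5 on in Sox10 cells and in a small set of Tubb3/Stmn2 cells. The cells that met both rules had more Gfra1 than Sox10 cells in all 4 E10.5 libraries (56.8, 53.6, 43.1 and 55.3 CPM), more Dbh than Tubb3/Stmn2 cells in control library 1 and null library 2, and more Th (9.53 CPM) in null library 2. Levels are CPM, the UMIs of the gene over all UMIs of the class, scaled to a total of 1000000. Their intervals, and those of the shares of cells, cover counting error only.

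**Figure D1:**
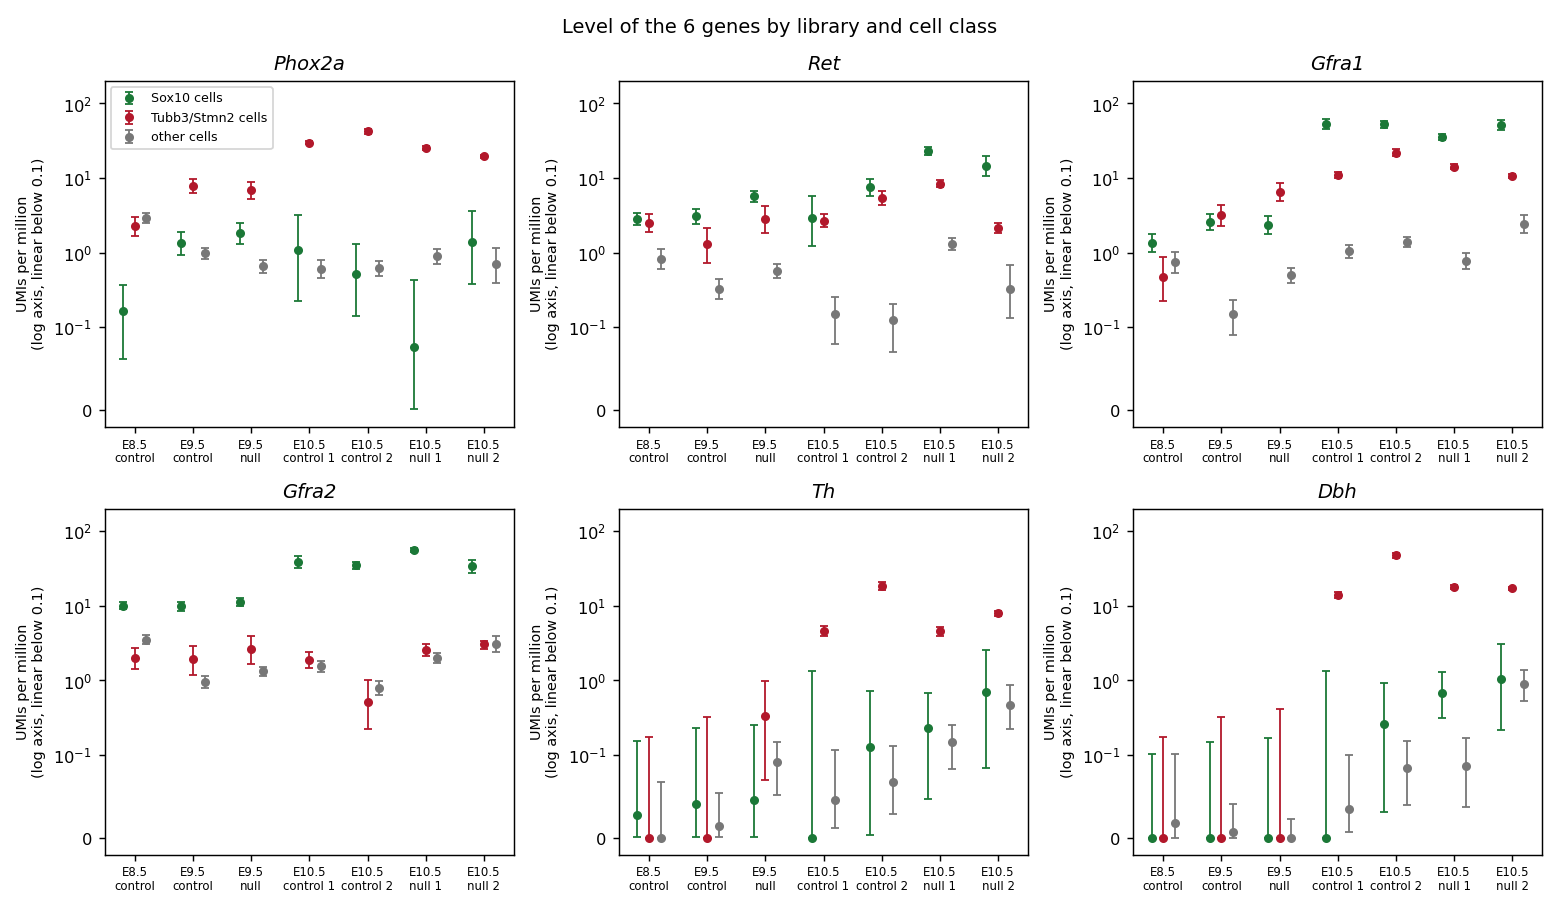
CPM (log axis, linear below 0.1) of each of the 6 genes in Sox10 cells (green), Tubb3/Stmn2 cells (red) and other cells (gray) of the 7 libraries, with exact 95% Poisson intervals for counting error; cells that met both rules are not shown. Red points for Phox2a, Th and Dbh stand highest in the 4 E10.5 libraries, and green points for Gfra1 and Gfra2 rise between E9.5 and E10.5.

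Phox2a was low in the class sums before E10.5. In Tubb3/Stmn2 cells it stood at 2.28 CPM in the E8.5 control, 7.90 in the E9.5 control and 6.90 in the E9.5 null library. At E10.5 it was at 30.0 and 42.6 CPM in control libraries 1 and 2 and at 25.1 and 19.7 CPM in null libraries 1 and 2. All 4 libraries at E10.5 lay above all 3 earlier ones. Of the 6 genes, 3 were called higher at E10.5 than at E9.5 in Tubb3/Stmn2 cells, where 12.2% of all 14638 genes tested were called in either direction (1132 higher and 661 lower), at an adjusted p under 0.05 by edgeR's quasi-likelihood test with Benjamini-Hochberg adjustment and genotype in the model. Phox2a was one of them, with a log2 difference of 1.61 (SE 0.27, edgeR adjusted p = 0.0114). In cells with at least 20 Tubb3 and Stmn2 UMIs it was already at 48.4 (control) and 29.4 CPM (null) at E9.5, from 82 UMIs in 6 of 116 cells and 47 UMIs in 5 of 118 cells, against 85.1 and 76.2 (controls) and 74.6 and 52.2 CPM (nulls) at E10.5, and the difference of 0.63 missed the threshold (edgeR adjusted p = 0.0733). Stage and dissected tissue cannot be told apart, since the first arch was removed at E10.5 only.

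Before E10.5 most UMIs of Phox2a lay outside Tubb3/Stmn2 cells. At E8.5, 71.5% of the UMIs of Phox2a lay in other cells (158 UMIs in 119 cells, 2.92 CPM) and 21.7% in Tubb3/Stmn2 cells. At E9.5 other cells held 50.2% of them in both libraries (132 UMIs in 63 cells in the control and 107 UMIs in 89 cells in the null library), against 34.6% and 28.6% in Tubb3/Stmn2 cells (14 and 15 cells). Other cells were 75.3% and 82.9% of kept cells there, and Tubb3/Stmn2 cells 8.34% and 5.72%. The level was thus lower in other cells, at 0.981 and 0.657 CPM against 7.90 and 6.90 CPM. At E10.5 the Tubb3/Stmn2 cells held 81.9% to 93.8% of the UMIs of Phox2a. With every cell thinned to 5000 UMIs, 0.17% to 0.269% of other cells at E10.5 had a Phox2a UMI. Mesenchymal cells among them (at least 3 UMIs of Prrx1, Prrx2 and Twist1, and no Sox10, Tubb3 or Stmn2 UMI) stood at 0.247% to 0.917%. Null library 2 held at most 198 such mesenchymal cells, so its share rests on few cells. Without thinning, some of the other cells held several UMIs of Phox2a, since 53, 74, 82 and 15 UMIs came from 36, 37, 25 and 15 cells. The 119 E8.5 cells had higher levels of Nkx2-9 (108 against 15.9 CPM in other cells without Phox2a), a homeobox gene of the ventral neural tube, of the signaling gene Fgf8 (149 against 36.9) and of the homeobox gene Nkx6-2 (64.3 against 19.2). These 3 genes were named after their values were seen.

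In Sox10 cells Phox2a had 33 and 40 UMIs in the E9.5 control and null libraries and only 3, 4, 1 and 4 UMIs in the 4 E10.5 libraries (controls 1 and 2, nulls 1 and 2). Its log2 difference between stages was -1.96 (SE 0.67, edgeR adjusted p = 0.0406). This decrease depended on how cells that met both rules were treated, for with them added to the Sox10 cells it became 1.89 (edgeR adjusted p = 0.0284). It was also lost without E10.5 control library 2 (-1.94, adjusted p = 0.0761) or null library 1 (-1.11, adjusted p = 0.115), with DESeq2 (-1.84, adjusted p = 0.0537) and at the limit of 20 UMIs (-1.32, adjusted p = 0.189). With so few UMIs and a sign that turned with the class rule, no direction is read for Phox2a in Sox10 cells.

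Ret was detected in Sox10 cells at every stage. Its level in Sox10 cells was 2.85 CPM at E8.5 (84 of 1328 cells with a UMI), 3.12 in the E9.5 control and 5.69 CPM in the E9.5 null library. At E10.5 it was 2.91 and 7.50 CPM in the controls and 23.2 and 14.7 CPM in the nulls, from 8, 58, 304 and 42 UMIs. Control library 1 lay within the range of the earlier libraries and the other 3 lay above it. The cells that met both rules had more Ret in every library, at 9.84 CPM at E8.5, 5.58 and 9.90 CPM at E9.5, and 21.2, 18.0, 39.2 and 21.0 CPM at E10.5.

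Of the 4 members tested between stages in Sox10 cells, 3 were called higher and 1 lower, where 26.1% of all 12481 genes tested were called (1673 higher and 1587 lower). Ret was higher at E10.5 by 0.99 on the log2 scale (SE 0.33, edgeR adjusted p = 0.0366). The call was lost without control library 2 (0.89, adjusted p = 0.0878), without null library 1 (0.73, adjusted p = 0.103) and with limits of 3 Sox10 UMIs and 5 Tubb3 and Stmn2 UMIs (0.79, adjusted p = 0.116). In Tubb3/Stmn2 cells Ret was at 2.52 CPM at E8.5 (39 of 942 cells with a UMI). It was at 2.69, 5.49, 8.45 and 2.14 CPM at E10.5 and at 1.30 and 2.83 CPM at E9.5. These ranges overlapped, and the stage difference of 0.89 was not called (SE 0.63, edgeR adjusted p = 0.365). In cells with 20 or more Tubb3 and Stmn2 UMIs Ret was called higher at E10.5 by 3.85 (edgeR adjusted p = 0.0446), with levels of 1.18 and 0 CPM at E9.5 and 7.75, 9.59, 22.1 and 4.87 CPM at E10.5.

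Gfra1 made the largest change between stages in Sox10 cells among the 4 members tested there. It was at 1.37 CPM at E8.5, 2.62 (control) and 2.39 CPM (null) at E9.5, and 53.4, 52.4, 35.1 and 51.8 CPM at E10.5. Every E10.5 library lay far above every earlier one, and the log2 difference was 3.87 (SE 0.26, edgeR adjusted p = 1.32e-07). After thinning to 5000 UMIs, 1.55% (95% interval 0.872% to 2.55%) of Sox10 cells in the E9.5 control and 1.44% (0.767% to 2.44%) in the E9.5 null library had a Gfra1 UMI. At E10.5 the shares were 18.6% (12.1% to 26.9%), 19% (15.3% to 23.1%), 16.3% (13.2% to 19.8%) and 23.5% (16.1% to 32.3%), against 0.127% to 0.917% of mesenchymal cells. Null library 2 held at most 198 of those mesenchymal cells. Gfra1 was also present in Tubb3/Stmn2 cells at E10.5, at 11.0, 21.8, 14.3 and 10.6 CPM, against 3.21 and 6.56 CPM at E9.5, and that difference was not called (1.22, SE 0.43, edgeR adjusted p = 0.0926). DESeq2 called it (1.17, DESeq2 adjusted p = 0.0193).

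Gfra2 was already at 10.1 CPM in Sox10 cells at E8.5 and at 9.84 and 11.3 CPM at E9.5. It was at 38.9, 34.8, 56.0 and 34.0 CPM at E10.5, again with no overlap between stages (log2 difference 1.58, SE 0.23, edgeR adjusted p = 0.000189). In Tubb3/Stmn2 cells Gfra2 stayed at 0.517 to 3.04 CPM in all 7 libraries. In other cells 0 of the 5 members tested between stages were called, where 19.9% of 16548 genes were. At an unadjusted p under 0.05 in the edgeR test 1 of the 5, Gfra1, passed, and DESeq2 called Gfra1 as well.

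Th and Dbh were nearly undetected before E10.5. Dbh had 1 UMI in the whole E8.5 library, 1 in the E9.5 control and none in the E9.5 null library, and in Tubb3/Stmn2 cells it had none in all 3. Th had 1 UMI in the whole E8.5 library, 3 in the E9.5 control and 19 in the E9.5 null library, of which 15 lay in other cells and 3 in Tubb3/Stmn2 cells. None of its UMIs lay in Tubb3/Stmn2 cells of the E8.5 and E9.5 controls. In the E10.5 Tubb3/Stmn2 cells Dbh was at 14.0, 47.4, 18.0 and 17.1 CPM (520, 734, 793 and 1445 UMIs). Th was at 4.66, 18.4, 4.55 and 7.91 CPM (173, 285, 201 and 670 UMIs). Control library 2 was highest for both enzymes, and each E10.5 library exceeded each earlier one.

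Both enzymes were called higher at E10.5 in Tubb3/Stmn2 cells (edgeR adjusted p = 0.00525 for Dbh and 0.02 for Th). Dbh had no UMI at E9.5, so only a bound can be given. The lowest E10.5 level of Dbh was at least 41.3-fold above the floor of 3 counts per library, 0.339 CPM in the smaller E9.5 sum. For Th, 3 UMIs at E9.5 against 1329 at E10.5 gave a ratio of 49.7 with a counting interval of 17 to 241. The call for Th was lost without E10.5 null library 2 (edgeR adjusted p = 0.0505), while Dbh was still called without it (edgeR adjusted p = 0.0203).

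Th and Dbh rose together, and their promoter sequences are shown with that of Phox2a, which was detected in the same cells as they were. The sequences run from 250 bases before to 50 bases after the transcription start in the RefSeq annotation of GRCm38.p6. The promoter set used here held these 3 genes and Gfra1 but not Ret or Gfra2. They lie at chr7:142899946-142900245 on the minus strand for Th, chr2:27165257-27165556 on the plus strand for Dbh and chr7:101818063-101818362 on the plus strand for Phox2a. The gene spans in the opening paragraph come from another annotation, GENCODE. Its spans of Th and Dbh begin further upstream, so these 2 windows lie inside them. Capitals mark the letters TGACGTCA, the palindromic cAMP response element, and ATTA on either strand (written ATTA or TAAT), the core that homeodomain factors commonly bind. No match of one motif overlapped a match of the other.
Th: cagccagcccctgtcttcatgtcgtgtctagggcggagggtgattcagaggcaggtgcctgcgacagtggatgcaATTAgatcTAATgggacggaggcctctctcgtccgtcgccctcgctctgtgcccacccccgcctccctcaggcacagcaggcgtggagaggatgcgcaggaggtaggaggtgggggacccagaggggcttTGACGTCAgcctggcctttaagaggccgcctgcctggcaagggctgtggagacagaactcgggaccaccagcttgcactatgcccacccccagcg
Dbh: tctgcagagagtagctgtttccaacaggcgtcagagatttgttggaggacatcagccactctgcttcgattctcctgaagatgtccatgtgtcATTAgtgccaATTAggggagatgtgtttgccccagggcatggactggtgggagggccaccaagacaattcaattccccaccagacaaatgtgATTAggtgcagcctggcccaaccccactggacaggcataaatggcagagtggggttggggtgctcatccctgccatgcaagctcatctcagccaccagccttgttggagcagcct
Phox2a: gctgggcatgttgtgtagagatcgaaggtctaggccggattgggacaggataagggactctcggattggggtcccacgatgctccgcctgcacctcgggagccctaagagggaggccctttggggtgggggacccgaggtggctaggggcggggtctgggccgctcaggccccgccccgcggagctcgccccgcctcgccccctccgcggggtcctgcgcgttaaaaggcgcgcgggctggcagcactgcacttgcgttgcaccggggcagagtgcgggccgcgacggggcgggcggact
The Th promoter held 1 TGACGTCA beginning 45 bases before the start and 2 ATTA cores beginning 175 and 167 bases before it. The Dbh promoter held 3 ATTA cores, beginning 157, 147 and 65 bases before the start, and no TGACGTCA. Phox2a and Gfra1 held neither. Of 32851 promoters of the same length, 1.79% held TGACGTCA and 58% held ATTA on either strand, so the core is common. These matches describe letters in a window and not sites in use. The promoters differed in base composition, with a GC content of 64.3% for Th, 54% for Dbh and 71.3% for Phox2a.

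The classes of the same 4 E10.5 libraries were compared with the library as a block. Sox10 cells exceeded other cells in 3 of the 6 members, where 34.5% of 15832 genes were called (2575 higher and 2891 lower). Gfra1 was higher by 5.26 (SE 0.30, edgeR adjusted p = 1.29e-06), Ret by 4.87 (SE 0.50, 4.87e-05) and Gfra2 by 4.69 (SE 0.29, 2.3e-06) on the log2 scale. Phox2a, Th and Dbh were not called (edgeR adjusted p = 0.557, 0.647 and 0.293). With cells that met both rules added to the Sox10 cells, Phox2a (3.25, edgeR adjusted p = 0.000582), Th (4.46, 0.000687) and Dbh (6.66, 8.14e-05) were all called. Dbh was also called without null library 2 (2.67, edgeR adjusted p = 0.0359) and at the limit of 20 UMIs (1.78, 0.0329), and null library 2 had 0.892 CPM of Dbh in other cells against 0.0344 to 0.087 CPM in the remaining 3.

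Tubb3/Stmn2 cells exceeded other cells in 5 of the 6 members, where 49.9% of the genes were called (3909 higher and 3984 lower). The log2 differences were 7.36 for Dbh (SE 0.61, edgeR adjusted p = 1.51e-05), 5.96 for Th (SE 0.52, 1.88e-05) and 5.37 for Phox2a (SE 0.29, 3.56e-06). Ret was higher by 3.56 (SE 0.47, edgeR adjusted p = 0.000184) and Gfra1 by 3.49 (SE 0.28, 1.38e-05). Gfra2 was not called (0.23, SE 0.29, edgeR adjusted p = 0.534), and its sign turned at the limit of 20 UMIs (-0.99, adjusted p = 0.0593).

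All 6 members differed between Sox10 and Tubb3/Stmn2 cells, a comparison in which 50.3% of the genes were called (3730 higher and 4236 lower in Sox10 cells). Gfra2 was higher in Sox10 cells by 4.46 (SE 0.30, edgeR adjusted p = 2.21e-06) and Gfra1 by 1.77 (SE 0.25, 0.00024). At the limit of 20 UMIs the difference in Gfra1 was 0.64 (edgeR adjusted p = 0.0214), with 56.0, 52.9, 39.1 and 57.5 CPM in Sox10 cells and 28.5, 36.7, 40.9 and 26.4 CPM in Tubb3/Stmn2 cells, and null library 1 went the other way. Phox2a was lower in Sox10 cells, with log2 differences of -5.94 for Phox2a (SE 0.45, edgeR adjusted p = 4.38e-06), -5.44 for Dbh (SE 0.75, 0.000192) and -5.12 for Th (SE 0.75, 0.000295). Ret was higher in Sox10 cells by 1.32 (SE 0.44, edgeR adjusted p = 0.0303). That call was lost without null library 1 (1.23, adjusted p = 0.1), without null library 2 (0.83, adjusted p = 0.146) and at the limit of 20 UMIs (0.64, adjusted p = 0.116). The difference in Dbh was lost when cells that met both rules were added to Sox10 cells (-0.69, edgeR adjusted p = 0.287). Those cells had 21.2, 31.2, 17.6 and 37.1 CPM of Dbh, against 14.0, 47.4, 18.0 and 17.1 CPM in Tubb3/Stmn2 cells, so they were lower in control library 2, higher in control library 1 and null library 2 and close in null library 1.

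Phox2a, Th and Dbh were concentrated in few cells. Dbh had a UMI in 43, 54, 86 and 197 cells of the E10.5 libraries (controls 1 and 2, nulls 1 and 2). Of these, 21, 36, 42 and 60 cells had 5 or more UMIs and held 94.4%, 97.1%, 94.7% and 92.7% of all UMIs of Dbh, up to 150 UMIs in 1 cell. Cells with 5 or more UMIs held 86.2% to 91.4% of Phox2a and 58.7% to 84.6% of Th. The coreceptors were spread thinly in contrast, for such cells held 9.21% to 19.2% of Gfra1 and 1.13% to 21.6% of Gfra2. For Ret the share ran from 31.5% to 72.5%.

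Cells with a UMI of at least 2 of Phox2a, Th and Dbh, here called Phox2a/Th/Dbh cells, numbered 45 and 47 in the E10.5 controls and 57 and 91 in the E10.5 nulls, and 26, 28, 28 and 50 of them had all 3 genes. None was found at E8.5 (0 of 5587 cells, where 3 cells would be 0.0537%) or in the E9.5 control (0 of 7945, where 3 would be 0.0378%). These floors limit cells with such UMIs at this depth, not cells that express the genes, and the E9.5 null library held 2. At E10.5 they made up 0.669% (95% exact interval 0.488% to 0.894%), 0.513% (0.377% to 0.682%), 0.707% (0.536% to 0.916%) and 1.4% (1.13% to 1.71%) of kept cells. Null library 2 was highest. Among cells with 20 or more Tubb3 and Stmn2 UMIs the shares were 4.77%, 5.01%, 5.04% and 4.5%, with null library 2 now lowest and all 4 libraries close together. Most were Tubb3/Stmn2 cells (43, 42, 42 and 71), with 2, 5, 14 and 19 among cells that met both rules, 1 Sox10 cell in each null library and no other cell. A further 7, 13, 17 and 13 such cells had been removed as doublets. Their median of 18151, 15564, 21704 and 21526 UMIs compares with 18072.5, 14855.5, 19587 and 17615 UMIs in all kept cells. In Tubb3/Stmn2 cells the median was lower, at 15347, 9042, 15471 and 16425 UMIs, so the chosen cells were deeper than the class that held most of them.

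**Figure D2:**
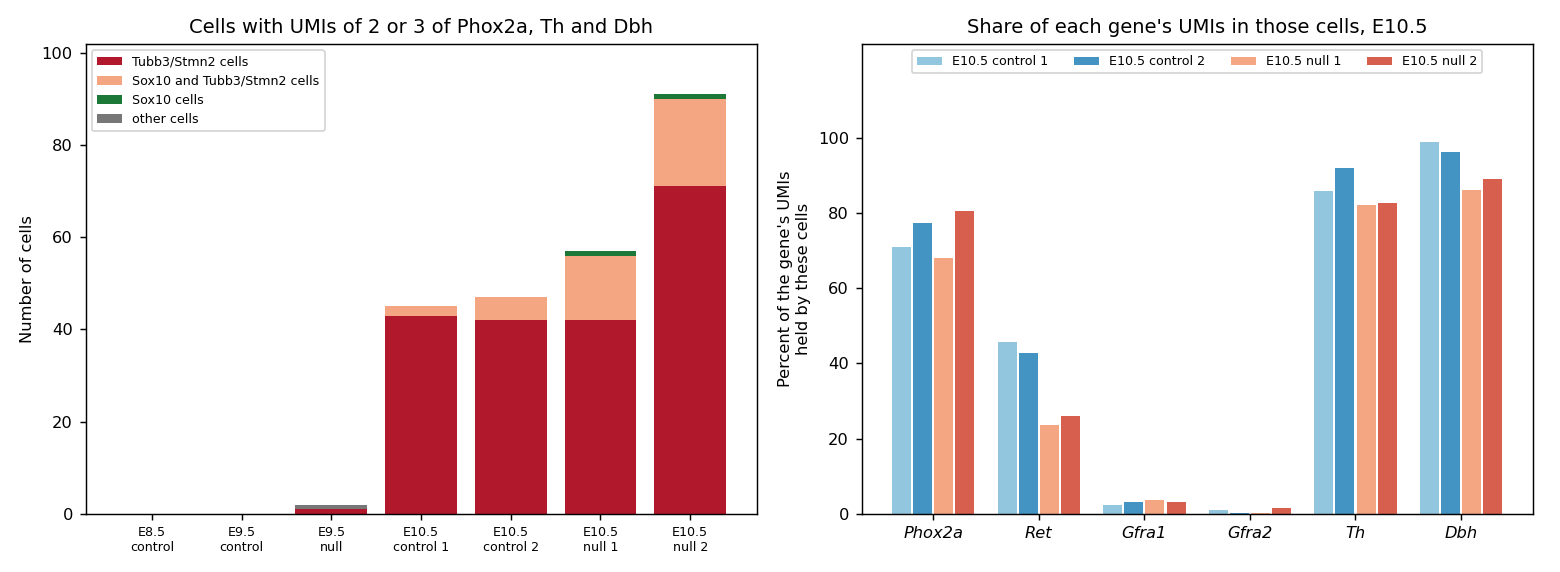
Left, the number of cells per library with a UMI of 2 or 3 of Phox2a, Th and Dbh, stacked by class; right, the percent of all UMIs of each gene that these cells held in the 4 E10.5 libraries (bars start at 0). The left bars stand at 45 to 91 cells at E10.5 and at 0 to 2 before, and the right bars are high for Phox2a, Th and Dbh, which chose the cells, and at 23.5% to 45.6% for Ret.

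Ret, which did not choose these cells, was enriched in them. They held 45.6%, 42.9%, 23.5% and 26.1% of all UMIs of Ret, and only 2.3% to 3.7% of those of Gfra1 and 0.182% to 1.51% of those of Gfra2. Ret stood at 92.5, 102, 282 and 78.5 CPM in the Phox2a/Th/Dbh cells. In Tubb3/Stmn2 cells with none of the 3 genes Ret stood at 0.483, 0.49, 0.907 and 0.808 CPM. The Phox2a/Th/Dbh cells had a median of 110, 47, 107 and 124 Tubb3 and Stmn2 UMIs. The cells compared with them, here and below, needed only 3 and excluded cells that met both rules. The part of this difference in the contrasts was not tested. A Ret UMI was found in 53.3%, 63.8%, 75.4% and 44% of the Phox2a/Th/Dbh cells, and Gfra1 was found in 35.6%, 44.7%, 56.1% and 39.6% at 21.3, 38.6, 56.7 and 32.2 CPM. Gfra2 was at 1.17 to 7.57 CPM in them.

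Hand2, Gata3 and Tlx2 were high in the same cells, while Hand1, Gata2, Isl1 and Insm1 are not given for them. Hand2, a basic helix-loop-helix factor of sympathetic neurons and arch mesenchyme, was at 354, 536, 347 and 479 CPM, against 12.8, 27.2, 7.4 and 23.5 CPM in Tubb3/Stmn2 cells with none of the 3 genes. Gata3, a zinc finger factor of sympathetic neurons, was at 130, 126, 64.1 and 173 CPM against 3.65 to 12.6 CPM. Tlx2, a homeobox gene of autonomic and enteric neurons, was at 284, 336, 418 and 423 CPM against 0.811 to 51.3 CPM. In every E10.5 library each of these was higher in the Phox2a/Th/Dbh cells.

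The genes that supply, store or remove the transmitter were uneven. Gch1, which makes the cofactor of tyrosine hydroxylase, was at 134, 170, 29.1 and 151 CPM in the Phox2a/Th/Dbh cells, Ddc, the decarboxylase between the 2 enzymes, at 128, 156, 61.1 and 118 CPM, and Slc18a2, the vesicular monoamine transporter, at 79.4, 167, 35.8 and 75.7 CPM. Null library 1 was lowest for all 3. Slc6a2, the noradrenaline transporter, was at 5.93, 8.2, 0 and 0.946 CPM. Slc18a3, the vesicular acetylcholine transporter, was at 66.4, 38.6, 44 and 70.5 CPM in the same cells, and Chat, choline acetyltransferase, was at 4.68 to 11.8 CPM. Prph, an intermediate filament of peripheral neurons, was at 242, 146, 44 and 251 CPM, with null library 1 again lowest, against 0.644 to 1.32 CPM in Tubb3/Stmn2 cells with none of the 3 genes.

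Tubb3/Stmn2 cells with Phox2a but neither Th nor Dbh numbered 51, 23, 48 and 135 at E10.5 and shared only part of this profile. Ret was at 15.7, 4.25, 11.1 and 1.00 CPM in them, far under the Phox2a/Th/Dbh cells, and Hand2 at 15.3 to 56.6 CPM and Tlx2 at 0 to 41.4 CPM were lower likewise. Tlx3, a homeobox gene of hindbrain and sensory neurons, stood at 322, 297, 535 and 130 CPM, against 280, 151, 172 and 211 CPM of Tlx3 in the Phox2a/Th/Dbh cells and 21.4 to 61 CPM in cells with none of the 3 genes. Tlx3 was thus high in both sets of cells with Phox2a. Neurog2, a proneural gene of sensory and central neurons, was at 198, 97.7, 186 and 61.1 CPM, against 7.03 to 48.6 CPM of Neurog2 in the Phox2a/Th/Dbh cells. In null library 2, 150 of all 260 cells with Phox2a had a single UMI of it. The counts were 54 of 132 and 32 of 111 in control libraries 1 and 2 and 41 of 126 in null library 1. The part of cells with a single UMI in the set of 135 is not given here. All values of this comparison are descriptions within libraries and were not tested, since cells are not replicates.

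The genes most enriched in Tubb3/Stmn2 cells with a Phox2a UMI at E10.5 (93, 65, 90 and 206 cells) were ranked by the lowest ratio over the 4 libraries to cells without one, among genes at 50 CPM or more in the cells with Phox2a in every library. Dbh led with a ratio of at least 251 in each library and Th followed with 76.1. Then came Ndufa4l2 (29.7), Hand2os1 (15.8), which is transcribed beside Hand2, Hand2 itself (8.25), the cannabinoid receptor gene Cnr1 (7.93), the homeobox gene Shox2 (6.01) and the synaptic vesicle gene Syt1 (5.46). For cells with a Ret UMI (38, 34, 59 and 90) the order was similar, with Dbh (74.6), Th (52.2), Phox2a (29.8), Ndufa4l2 (24.1), Hand2os1 (16.6), the axon guidance receptor Plxna4 (8.91), Hand2 (8.82) and Gata3 (8.2). Dbh and Th led both rankings.

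Co-detection was counted after every cell was thinned to 5000 UMIs, and the number of cells with both genes was divided by the number that the product of the 2 shares would give. Phox2a and Dbh shared 21, 28, 23 and 37 Tubb3/Stmn2 cells, which was 25.3, 21.0, 26.8 and 25.4 times that number. Of the cells with Dbh, 84%, 87.5%, 71.9% and 56.9% also had Phox2a. Null library 2 was lowest, and without thinning its share for Phox2a and Dbh fell to 35.8% while the controls stood at 91.7% and 97.2% and null library 1 at 75%. In that library 124 of the 197 cells with Dbh had a single UMI.

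Pairs with Ret also had ratios far above 1. The ratio depends on how rare each gene is, so it does not rank Ret against Phox2a. Ret and Dbh reached 37.4, 30.2, 58.5 and 22.3 times the product from 8, 19, 24 and 10 cells, and Phox2a and Ret 25.1, 17.3, 24.9 and 17.2 times from 15, 18, 22 and 12 cells. Th and Dbh reached 42.1, 25.5, 40.2 and 22.4 times, and Phox2a and Th 21.1, 18.0, 25.8 and 26.2 times. Gfra1 was far less tied to the others in Tubb3/Stmn2 cells, with Phox2a and Gfra1 at 1.72, 1.97, 1.95 and 1.78 times the product. These ratios compare with a class that mixes many neuron types, and cells of 1 library share their source.

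**Figure D3:**
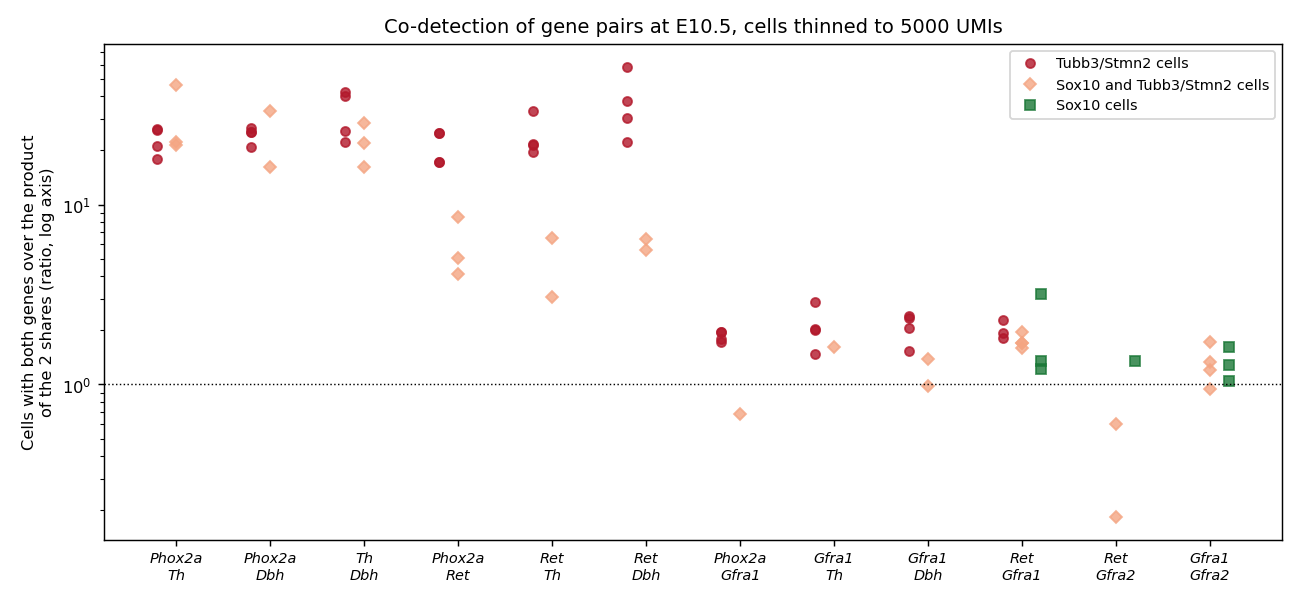
Ratio of the cells with both genes to the number given by the product of their shares (log axis, dotted line at 1) at E10.5, after thinning to 5000 UMIs; 1 point per library, drawn where at least 3 cells had both genes, in Tubb3/Stmn2 cells (circles), cells that met both rules (diamonds) and Sox10 cells (squares). Pairs among Phox2a, Ret, Th and Dbh lie between 17.2 and 58.5 in Tubb3/Stmn2 cells, and the circles of pairs with Gfra1 lie between 1.47 and 2.88.

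Sox10 cells carried Ret without the enzymes in most cases. All cells with at least 2 Sox10 UMIs were therefore split by whether they had a Ret UMI, which gave 17, 40, 227 and 110 cells with Ret at E10.5. Hand2 was at 131, 165, 141 and 208 CPM with Ret and at 2.32, 5.47, 3.79 and 10.9 CPM without. Tlx2 was at 80.2, 86.7, 103 and 160 CPM with Ret and at 0.211, 1.79, 2.17 and 21.2 CPM without. Hand2 and Tlx2 were thus higher in the cells with Ret in all 4 libraries, although in control library 1 Tlx2 came from only 4 of the 17 cells. The split includes cells that met both rules, and noradrenergic and neuronal genes were higher with Ret as well. Dbh was at 131, 90.9, 48 and 213 CPM with Ret against 0.211 to 2.1 CPM without, and Phox2a at 48.1, 56.4, 12.7 and 85.4 CPM against 0.633 to 3.26 CPM. Few cells carried these levels, since Dbh was found in 3, 4, 36 and 34 of the cells with Ret and Phox2a in 2, 4, 9 and 14. The neuronal gene Elavl3 was at 98.9, 37.2, 24.9 and 109 CPM with Ret and at 6.54, 7.78, 3.46 and 49.5 CPM without, and the part of neuronal cells in the contrast was not tested.

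The 2 coreceptors differed in opposite directions with Ret at E10.5. In the same split, which includes cells that met both rules, Gfra1 was at 74.8, 84, 54.3 and 78 CPM with Ret. Without Ret it was at 53.4, 50.3, 36.6 and 50.9 CPM. Gfra2 was at 21.4, 15.1, 27.7 and 23.4 CPM with Ret and at 38.2, 34.8, 63.3 and 34.6 CPM without. Gfra2 was lower with Ret in 7 of the 7 libraries, although by little at E9.5 (9.24 against 11.3 CPM in the control and 11.5 against 12.6 CPM in the null library). Gfra1 had no single direction before E10.5, at 1.26 CPM with Ret against 1.60 without at E8.5, 1.61 against 2.84 in the E9.5 control and 4.77 against 2.71 CPM in the E9.5 null library, from 7, 4 and 12 UMIs of Gfra1 with Ret. Among E10.5 Sox10 cells that met the first rule only, cells with both Ret and Gfra2 were counted without thinning. They were 0.794, 0.592, 0.622 and 0.793 times the product, from 2, 6, 32 and 4 cells. Most of those counts are small.

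Other crest genes differed too. Kit, the receptor of melanocyte precursors, was at 0, 1.38, 3.21 and 3.74 CPM with Ret at E10.5 in the same split. It was at 24.9, 40.7, 13.2 and 19.9 CPM without. Pax3, a paired box factor of premigratory crest and melanocyte precursors, was at 8.26 to 30.9 CPM with Ret and at 91.2 to 109 CPM without. Ednrb, the endothelin receptor of enteric and melanocyte precursors, did not separate them, at 326, 260, 189 and 229 CPM with Ret against 261, 240, 246 and 225 CPM without.

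**Figure D4:**
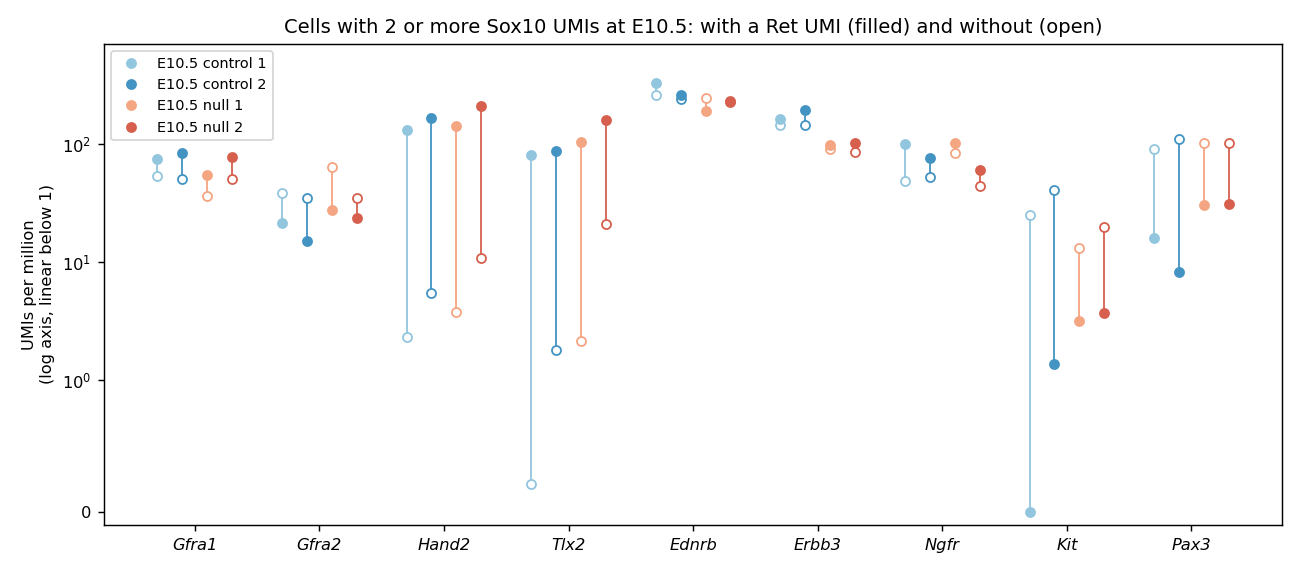
CPM (log axis, linear below 1) of 9 genes in cells with at least 2 Sox10 UMIs at E10.5, with a Ret UMI (filled) and without (open), 1 color per library. Filled points stand above open points for Gfra1, Hand2 and Tlx2 and below them for Gfra2, Kit and Pax3 in all 4 libraries.

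The null and control libraries at E10.5 were then compared, 2 against 2. In Sox10 cells 0 of the 3 members that passed the filter on low counts were called, where 0.302% of 11263 genes were (34 genes, 8 higher and 26 lower). Ret came nearest and was the 1 member with an unadjusted p under 0.05. Its 2.91 and 7.50 CPM in the controls and 23.2 and 14.7 CPM in the nulls did not overlap, and the log2 difference was 1.71 (SE 0.38, unadjusted p = 0.000363, edgeR adjusted p = 0.0861). DESeq2 called it (1.73, DESeq2 adjusted p = 0.0282). It stood at 1.35 without control library 1 (edgeR adjusted p = 0.124), 2.71 without control library 2 (0.00039), 1.29 without null library 1, within 1 kit (0.264), and 1.94 without null library 2 (0.00103). Ret was therefore called without some libraries and not without others.

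The share of mesenchymal cells with a Ret UMI also differed between libraries. After thinning, a Ret UMI was found in 2.54% (95% interval 0.527% to 7.25%), 3.16% (1.69% to 5.35%), 7.87% (5.71% to 10.5%) and 3.48% (0.956% to 8.67%) of Sox10 cells, and in 0.0495%, 0.0396%, 0.316% and 0% of mesenchymal cells with no Sox10, Tubb3 or Stmn2 UMI. The observed share was highest in null library 1 in both, and among Sox10 cells its interval overlapped those of all libraries but control library 2. Null library 2 held at most 198 such mesenchymal cells, so its 0% bounds the share only weakly. With thinned counts the log2 difference of Ret in Sox10 cells was 1.13 (edgeR adjusted p = 0.406), and with cells that met both rules added it was 1.29 (edgeR adjusted p = 0.341). Gfra1 was not called in Sox10 cells (-0.36, edgeR adjusted p = 0.619), although both nulls lay below both controls, null library 2 by little (51.8 against 52.4 CPM). Gfra2 overlapped between genotypes there (0.27, edgeR adjusted p = 0.731). Phox2a, Th and Dbh had at most 9 UMIs per library there and were not tested.

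Of the 4 autonomic transcription factors tested and reported here, 1 was called higher in null Sox10 cells. Tlx2 stood at 0 and 2.07 CPM in the controls and 12.2 and 8.06 CPM in the nulls (2.83, SE 0.56, edgeR adjusted p = 0.0451). These levels came from 0, 16, 160 and 23 UMIs, most of them in null library 1, whose kit differs from that of the controls. Fits with a library left out are not given for Tlx2. In Tubb3/Stmn2 cells Tlx2 had the other sign and was not called (-0.81, edgeR adjusted p = 0.803). Among all cells with at least 2 Sox10 UMIs, Tlx2 was higher with a Ret UMI than without within each library. That split includes cells that met both rules, which the genotype comparison leaves out. Those cells were 1.16% and 1.24% of kept cells in the E10.5 controls and 8.56% and 9.27% in the nulls. Sox10 cells were 1.86% and 4.51% in the controls and 6.53% and 1.8% in the nulls. The rule thus set aside more of the cells with Sox10 in the nulls. Its part in the genotype differences of Sox10 cells was not tested, and Tlx2 with those cells added is not given here. None of the 2 GDNF family genes, 2 transmitter genes and 4 crest receptors tested was called in Sox10 cells.

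In Tubb3/Stmn2 cells 0 of the 6 members were called between genotypes, and 0% of the 15142 genes tested were called by edgeR (926 at an unadjusted p under 0.05, and 220 by DESeq2, none of them a member). Phox2a, the 1 member with an unadjusted p under 0.05, was at 30.0 and 42.6 CPM in the controls and 25.1 and 19.7 CPM in the nulls, without overlap (-0.77, SE 0.27, unadjusted p = 0.025, edgeR adjusted p = 0.747). At the limit of 20 UMIs Phox2a was at 85.1 and 76.2 CPM in the controls and 74.6 and 52.2 CPM in the nulls. The levels of Dbh (-0.87, edgeR adjusted p = 0.754) and Th (-0.94, edgeR adjusted p = 0.759) rested on control library 2, without which the differences were 0.22 and 0.31. Ret was at 0.34 (edgeR adjusted p = 0.905), Gfra1 at -0.45 (0.779) and Gfra2 at 1.05 (0.749). In other cells 0 of the 5 members tested were called, against 0.0681% of 16144 genes (11 genes, 1 higher and 10 lower). Ret (log2 difference 2.55, SE 0.71, edgeR adjusted p = 0.351) and Th had an unadjusted p under 0.05, and DESeq2 called Ret. Its UMIs there were 13, 15, 122 and 7, so null library 1 held most of them.

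The genotype effect in Sox10 cells was also compared with that in Tubb3/Stmn2 cells. None of the 6 members and 0% of 14137 genes were called by edgeR (682 at an unadjusted p under 0.05, and 22 by DESeq2). For Ret the effects differed by 1.70 on the log2 scale (SE 0.49, unadjusted p = 0.0111, edgeR adjusted p = 0.903), and Th and Dbh also passed an unadjusted 0.05, from at most 9 UMIs per library in Sox10 cells. At E9.5, with 1 library per genotype and no test, Ret was at 3.12 (95% Poisson interval 2.46 to 3.9) and 5.69 CPM (4.73 to 6.79) in Sox10 cells of the control and null libraries. Gfra1 was at 2.62 and 2.39 CPM and Gfra2 at 9.84 and 11.3 CPM there.

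The remaining genes of the pathway followed the stage comparisons in part. Of all genes tested there, 26.1% were called in Sox10 cells, 12.2% in Tubb3/Stmn2 cells and 19.9% in other cells. Of the autonomic transcription factors reported here, 4 of 5 tested were higher at E10.5 in Sox10 cells, Hand2 (2.77, edgeR adjusted p = 0.000277), Insm1 (2.78, 1.85e-05), Isl1 (3.76, 0.000535) and Tlx2 (3.30, 0.0015), and 2 of 7 in Tubb3/Stmn2 cells, Hand2 (2.01, 0.0293) and Gata3 (2.11, 0.036). In other cells 4 of 7 were higher, Hand1 (2.04, edgeR adjusted p = 0.0065), Isl1 (2.72, 0.00568), Gata3 (1.64, 0.007) and Gata2 (0.88, 0.0478). Of the transmitter genes, 3 of 8 tested were higher at E10.5 in Tubb3/Stmn2 cells, the cholinergic genes Chat (edgeR adjusted p = 0.0345) and Slc18a3 (3.81, 0.00827) and the nicotinic receptor subunit Chrna3 (1.05, 0.0355). In Sox10 cells 2 of 4 tested were higher, Slc18a2 (2.16, edgeR adjusted p = 0.0264) and Slc5a7 (2.57, 0.04), from at most 16 and 8 UMIs per library. In other cells Ddc was lower (-0.77, edgeR adjusted p = 0.0477). All 4 crest receptors were higher at E10.5 in Sox10 cells, Ednrb by 1.65 (edgeR adjusted p = 2.13e-05), Kit by 1.67 (0.00223), Erbb3 by 1.16 (0.00317) and Ngfr by 0.78 (0.033). In other cells Ngfr was higher (1.06, edgeR adjusted p = 0.0274), Erbb3 was lower (-1.43, 0.0187) and the remaining 2 were not called.

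The ligands did not share 1 direction between classes. Gdnf, the ligand of Gfra1 and Ret, was higher in Sox10 cells than in other cells at E10.5 by 4.13 (edgeR adjusted p = 0.000353) and rose in them between stages by 1.86 (0.0175). Its level in Sox10 cells was nonetheless low, at 3.27, 2.72, 2.83 and 0.701 CPM from 9, 21, 37 and 2 UMIs of Gdnf. Artn was higher in Sox10 than in other cells (2.06, edgeR adjusted p = 0.0182), and Nrtn, the ligand of Gfra2, was lower (-1.21, 0.00621), as was the coreceptor Gfra4 (-1.13, 0.00923). Pspn did not pass the filter on low counts.

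Across 21 sums (7 libraries by 3 classes), log2 CPM of each member was compared with that of 9789 genes that reached 10 CPM in any sum. Th and Dbh were most like each other (Pearson r = 0.99), and next to them stood Lhx1os (0.99 with Th and 0.98 with Dbh), Slc17a6 (0.98 with Th) and Evx1os (0.98 with Dbh). Phox2a was most like Fgf18, Mtcl1 and Gm26871 (0.96 each), and its r with Th and with Dbh was 0.85. Ret was most like Rit1 (0.89), Cnrip1 and Tfap2b (0.85 each), Gfra1 like 9330159F19Rik and Coro2b (0.96 each) and Mmp15 (0.95), and Gfra2 like Igsf11 (0.97), Gas7 and Cnp (0.96 each). Between members, Ret and Gfra1 had an r of 0.76, Ret and Gfra2 of 0.70, Phox2a and Ret of 0.15, and Phox2a and Gfra2 of -0.43. The 21 sums share libraries and depth, so these values only describe the patterns.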

How the data were processed

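Droplet 3' libraries (10x Genomics) of 7 samples were used as deposited. The authors used Cell Ranger 6.0.1 and mm10, per the labels, and their deposited matrices hold raw UMI counts. Barcodes with fewer than 1000 genes, or over 10% of mitochondrial UMIs, were dropped, and Scrublet (scanpy 1.11.5), at an expected 0.8% doublets per 1000 barcodes, removed 287 to 1097 barcodes per library. Libraries held 5987 to 12047 barcodes and 140264662 to 234844769 UMIs.

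Counts of each class were summed per library, filtered on low counts (filterByExpr), scaled by TMM and tested with the quasi-likelihood test of edgeR 4.0.16 (R 4.3.3), adjusted by Benjamini-Hochberg over all genes tested, with a threshold of 0.05. Libraries were the replicates, each a pool of embryos, so p-values measure the spread between pools. The standard error was the log2 difference over the square root of F. The test was also run on simulated data with 200 genes changed 4-fold, all well above the filter on low counts. The simulation gave every gene the same dispersion and held no differences in kit. It therefore does not check the test for genes with few UMIs or for such differences. DESeq2 1.42.0, other limits, thinning, doublets kept and leaving out each library were the alternatives. Shares have exact Clopper-Pearson intervals (95%) and levels exact Poisson intervals.

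The members, gene lists and rules were chosen with earlier results of these data known. The text names the 6 members, class markers, the 3 genes most like each member and the 8 partners of Phox2a and Ret. Of 4 pathway lists it names the genes that passed between genotypes or stages. Between classes it names only genes of the GDNF family list. The Phox2a/Th/Dbh cells, the split of Sox10 cells by Ret, the E8.5 cells with Phox2a and the limit of 20 Tubb3 and Stmn2 UMIs were chosen after the data were seen. Some genes are not reported here.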

Additional observations from a re-analysis of the deposited data

Results flagged for a closer look

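Phox2a in other cells pointed in opposite directions between genotypes at the 2 stages. At E9.5 its level was 0.981 CPM in the control and 0.657 CPM in the null library, a ratio of 0.67, while at E10.5 it was 0.608 and 0.623 CPM in the controls and 0.892 and 0.704 CPM in the nulls. The difference between stages was not tested, with 1 library per genotype at E9.5. After thinning to 5000 UMIs, the share of other cells with Phox2a was 0.237% in the control and 0.277% in the null library at E9.5, and mesenchymal cells had 0.129% and 0.277%.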

How the results depend on the processing

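Among the values of single members, 432 kept their direction and side of the threshold under the alternatives, 15 lost a call, 15 gained one and 12 changed sign. Genes called between genotypes changed most. In Sox10 cells the 34 became 72 with DESeq2, 157 without a filter on low counts, 11 with limits of 3 and 5 UMIs, 2 with cells that met both rules added, 8 at the limit of 20 UMIs (chosen after seeing the data), and 41 to 246 with 1 library left out. In Tubb3/Stmn2 cells the 0 became 220 with DESeq2, 268 without a filter, 1 with doublets kept, 3 at 20 UMIs, and 0 to 101 with 1 library left out. In other cells the 11 became 1038 with DESeq2, 825 without a filter, 6 with limits of 3 and 5 UMIs, and 10 to 534 with 1 library left out. The interaction count of 0 became 22 with DESeq2, 204 without a filter, 22 after thinning, and 2 to 207 with 1 library left out. Replicate numbers were shared by the genotypes only as numbers, and same-numbered libraries deviated together with a correlation of 0.29 in Sox10 cells, 0.44 in Tubb3/Stmn2 cells and 0.24 in other cells. With the replicate number as a block 405, 31 and 328 genes were called there, and Ret in Sox10 cells stood at 1.69 (edgeR adjusted p = 1.2e-05). The cause was not tested for any of these.

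Between stages, the 3260 genes in Sox10 cells became 2164 after thinning and 2401 to 3911 with 1 library left out. The 1793 in Tubb3/Stmn2 cells became 4119 with DESeq2, 3270 without a filter, and 934 (without E10.5 null library 2) to 2434 with 1 library left out. The 3299 in other cells became 6267 with DESeq2, 5048 without a filter, and 1579 (without E10.5 control library 1) to 4377. The 5466 of Sox10 against other cells became 3186 after thinning and 3756 to 4965, the 7893 of Tubb3/Stmn2 against other cells 5267 to 7398, and the 7966 of Sox10 against Tubb3/Stmn2 cells 6094 to 7159, with 1 library left out.

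The changes of sign were Gfra2 between genotypes in Sox10 cells (-0.16 without null library 1, up to 0.56 without null library 2), and in Tubb3/Stmn2 cells Ret (-0.45 after thinning, -1.01 without null library 1, -0.08 without control library 1 and up to 1.05), Gfra1 (0.08), Th (0.31) and Dbh (0.22), the last 3 without control library 2 and at -0.85, -1.62 and -1.49 without control library 1. Phox2a turned between stages in Sox10 cells (1.89) and against other cells (3.25) with cells that met both rules added, and against other cells it was 0.40 without null library 1 and -1.02 without null library 2. Gfra2 in Tubb3/Stmn2 against other cells turned to -0.28 with limits of 3 and 5 UMIs and -0.99 at 20 UMIs. Shares moved with depth: Ret in Sox10 cells was 5.57% in control library 2 and 16% in null library 1 without thinning, and 5.53% in null library 1 at 3000 UMIs. Dbh in Tubb3/Stmn2 cells was 2.25% in null library 1 with limits of 3 and 5 UMIs, and in null library 2 it was 1.87% with those limits, 1.03% at 3000 UMIs and 2.69% without thinning. The share of Dbh cells with Phox2a was 97.2% in control library 2 and 35.8% in null library 2 without thinning.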
